A study of Homo sapiens with 9 samples.

Results

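The genes described here lie around the place where KEAP1 was cut on chromosome 19. They were chosen by position: each is a row of the human count table whose Entrez number belongs to a gene starting between 7.6 and 13.6 Mb on chromosome 19 of GRCh37, that is within 3 Mb of KEAP1 on either side, with KEAP1 itself left out. Of 12798 rows in the table, 119 met the rule, 47 with a start below that of KEAP1 (the telomeric side) and 72 above it (the centromeric side). A total of 115 are protein-coding. Of these 119 genes, 109 (43 telomeric and 66 centromeric) had enough reads to be tested and 10 did not (PRR36, TGFBR3L, ZNF559, RAVER1, RGL3, ZNF653, CNN1, ZNF439, ZNF442 and LYL1).

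The study transduced HepG2 cells, a line from a human liver cancer, with a lentiviral vector carrying Cas9 and a single guide RNA, and selected them with puromycin. The 9 libraries fall into 3 groups of 3: sgCtrl, whose guide is directed to AAVS1, and sgKeap1-1 and sgKeap1-2, whose guides are directed to different exons of KEAP1. All groups therefore received Cas9, the vector and a guide directed to chromosome 19. The share of alleles cut in each group was not measured here. RNA was taken 48 h after seeding and read from the 3′ end of polyadenylated transcripts. Whether the transduced cells were kept as a pool or grown from a single cell is not given in the sources used here, nor is it stated that replicates came from separate cultures, so the p-values measure only the spread between these libraries.

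KEAP1 is the adaptor that hands the transcription factor NRF2 to a ubiquitin ligase, and its loss lets NRF2 accumulate and switch on antioxidant genes. Cas9 makes a double-strand break, which is mostly repaired with small insertions or deletions, but at some alleles a longer stretch, or the whole arm beyond the cut, can be lost. Loss of a segment lowers the dose of every gene in it, so that neighbouring genes, or all genes from the cut to the telomere, would be lower together. A gene can also respond to the loss of KEAP1 itself wherever it lies.

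The guide target sites place the cut among these genes, and are shown with 30 bases of flanking GRCh37 sequence on each side, on the strand of the guide. Capitals mark the bases the guide matches, and the 3 bases that follow them are the PAM that Cas9 needs. The sgKeap1-1 site is at chr19:10602372-10602391 on the minus strand, in coding sequence of exon 3 of KEAP1. The sgKeap1-2 site is at chr19:10610500-10610519 on the minus strand, in coding sequence of exon 2. The control site is at chr19:55627855-55627873 on the plus strand, in an intron of PPP1R12C, far away on the other arm of the same chromosome. Each guide had 1 exact match on chromosome 19, and the KEAP1 cut sites lie 8128 bases apart.
sgKeap1-1: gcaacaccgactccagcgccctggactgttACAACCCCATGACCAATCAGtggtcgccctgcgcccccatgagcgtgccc
sgKeap1-2: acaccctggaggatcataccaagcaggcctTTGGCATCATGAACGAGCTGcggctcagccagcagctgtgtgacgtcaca
sgAAVS1: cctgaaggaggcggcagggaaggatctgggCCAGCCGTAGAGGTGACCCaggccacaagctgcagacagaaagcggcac

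Library totals ran from 3051755 to 4793757 counts. The hepatocyte markers ALB, APOA1, APOB, TTR, SERPINA1, AFP, FGB and HNF4A were present in every library (ALB at 3452 to 16095 CPM), while PTPRC, PECAM1 and VWF have no row in the table COL1A1 had 1 to 15 counts, and CD68, a macrophage marker, had 8 to 24 counts (2.09 to 5.75 CPM). Levels are given as CPM, counts relative to the TMM-scaled library size, and log2 fold changes were fitted in edgeR (quasi-likelihood), with p-values adjusted by the Benjamini-Hochberg procedure over the 11788 rows tested. In bulk RNA, fewer cells carrying a transcript and less of it per cell cannot be told apart.

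KEAP1, the cut gene, had CPM of 62.3, 87.9 and 84.4 in sgCtrl, 63.2, 61.6 and 52.8 in sgKeap1-1 and 80.9, 84.6 and 73.0 in sgKeap1-2. All groups overlapped except that the sgKeap1-1 libraries lay below all of the sgKeap1-2 libraries. The log2 fold changes against sgCtrl were -0.40 ± 0.15 (SE; adjusted p = 0.218) with sgKeap1-1 and 0.03 ± 0.15 (adjusted p = 0.948) with sgKeap1-2 in edgeR. Both guides cut in coding exons while the reads come from the 3′ end, so that the KEAP1 level does not check the edit.

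The genes around KEAP1 were not lower as a group in the cells that received a KEAP1 guide. With sgKeap1-1, 1 of the 109 genes tested passed the threshold (adjusted p under 0.05, edgeR), CTXN1, which was higher, and 0 were lower. This compares with 3.94% of all rows tested in either direction, 2.66% higher and 1.28% lower. CTXN1 did not pass in 5 of the 9 fits that left out 1 library. With sgKeap1-2, 8 of 109 passed, a share of 7.34% against 10.2% of all rows tested, and all 8 were higher (background 5.71%) with 0 lower (background 4.50%). Without sgCtrl replicate 1 the count with sgKeap1-2 was 5, and without sgCtrl replicate 3 it was 4. At an unadjusted p under 0.05, 7 were higher (background 8.14%) and 1 lower (6.46%) with sgKeap1-1. With sgKeap1-2, 21 had such a p (background 22.7%), 15 of them higher (12.0%) and 6 lower (10.7%). These contrasts share the sgCtrl libraries.

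Libraries of the same replicate number carry the same prefix in their labels in all 3 groups, and a fit with the replicate number as a block called more genes, here and over all rows. With the block, 5 of 109 genes passed with sgKeap1-1 (8.38% of all rows), all higher. With sgKeap1-2 it was 16 of 109 (16.8% of all rows), 14 higher and 2 lower, the lower ones being DNMT1 and SPC24. The counts of 0 lower genes and the adjusted p-values that follow therefore hold for the fit without the block, and for the genes named the blocked p is given where it changes a call.

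Their middle value stayed near that of all rows. The median log2 fold change over the 109 genes was 0.02 with sgKeap1-1 and 0.03 with sgKeap1-2, beside 0.00 and -0.01 over all rows tested. On the telomeric side, where loss of the chromosome end would show, the medians were -0.04 and -0.01. On the centromeric side they were 0.06 for both guides. The telomeric median was thus the lower of the 2 sides with both guides. For each library, the median deviation of the log2 CPM of these genes from their means over all 9 libraries was also taken. The SD of that value between libraries within groups was 0.05 to 0.09, about as large as the distance between the sides. It is a spread of single libraries and not the error of the medians above. Whether the sides differ was not tested.

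Along the region, the medians followed no single direction. In bins of 1 Mb from the telomeric end, the median log2 fold changes with sgKeap1-1 were -0.10 (20 genes), 0.37 (3 genes) and 0.00 (20 genes) up to KEAP1, and 0.15 (25 genes), -0.07 (15 genes) and 0.04 (26 genes) beyond it. With sgKeap1-2 the same bins gave -0.07, -0.09 and 0.11 up to KEAP1, and 0.17, -0.17 and 0.01 beyond it. The bin just centromeric of KEAP1 had the highest median of the bins with at least 15 genes for both guides, and 18 of its 25 genes lay above 0 with each. In the bin at the telomeric end, 14 of 20 genes lay below 0 with each guide. In running medians of 15 genes, the lowest with sgKeap1-1 was -0.08, from CAMSAP3 to ANGPTL4 at the telomeric end, and the highest was 0.27, from QTRT1 to PLPPR2. With sgKeap1-2 the lowest was -0.17, from PRKCSH to ZNF799, and the highest was 0.50, from SMARCA4 to ZNF627. Across the 109 genes, the rank correlation (Spearman) of log2 fold change with distance from KEAP1 was -0.14 with sgKeap1-1 and -0.16 with sgKeap1-2, a description only, since neighbouring genes and shared libraries are not independent.

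The levels were then compared library by library. The mean log2 CPM of the 109 genes was 4.69 ± 0.05 in sgCtrl, 4.75 ± 0.04 in sgKeap1-1 and 4.74 ± 0.06 in sgKeap1-2 (SD, n = 3 each). On the telomeric side it was 4.84 ± 0.04, 4.86 ± 0.06 and 4.83 ± 0.09, and on the centromeric side 4.60 ± 0.07, 4.68 ± 0.03 and 4.68 ± 0.05. The libraries of the 3 groups overlapped over each side of KEAP1 taken whole. Between libraries of the same replicate number, the telomeric differences from sgCtrl were 0.04, -0.08 and 0.12 with sgKeap1-1 and -0.12, -0.01 and 0.10 with sgKeap1-2, of both signs for each guide. The centromeric differences were 0.02, 0.06 and 0.18 with sgKeap1-1 and -0.01, 0.06 and 0.21 with sgKeap1-2. In the second bin from the telomeric end, which holds 3 genes, every sgKeap1-1 library was above every sgCtrl library. The mean log2 CPM there was 2.78, 2.62 and 2.68 in sgKeap1-1 and 2.30, 2.27 and 2.23 in sgCtrl, and sgKeap1-2 overlapped sgCtrl. In the bin just centromeric of KEAP1 the groups separated in part. The mean log2 CPM of its 25 genes was 4.95, 4.94 and 4.88 in sgCtrl, 5.10, 4.94 and 5.18 in sgKeap1-1 and 5.11, 5.04 and 5.27 in sgKeap1-2. Every sgKeap1-2 library was above every sgCtrl library, by 0.16, 0.10 and 0.38 between libraries of the same number, and sgKeap1-1 overlapped sgCtrl. Of these 25 genes, 4 passed as higher with sgKeap1-2 (16% against a background of 5.71%, edgeR), DNM2, SMARCA4 and RAB3D among them, and 0 as lower (background 4.50%). In the joint comparison 5 passed as higher (20% against 5.29%), and with sgKeap1-1 0 passed (background 3.94%). The joint count depended on single control libraries. Without sgCtrl replicate 1, RAB3D was the only gene of the bin that passed in the joint comparison. Without sgCtrl replicate 3 it was DNM2 alone. Whether this bin differs from the rest of the region was not tested. As a share of all counts, the 119 genes took 0.766, 0.686 and 0.775% in sgCtrl, 0.785, 0.683 and 0.826% in sgKeap1-1, and 0.773, 0.742 and 0.833% in sgKeap1-2. Those shares overlapped as well, with the second replicate the lowest in each group. Without the 5 most abundant genes the shares were 0.465, 0.433 and 0.456% in sgCtrl, 0.473, 0.4299 and 0.498% in sgKeap1-1, and 0.482, 0.475 and 0.517% in sgKeap1-2. All sgKeap1-2 libraries were then above all sgCtrl libraries, while sgKeap1-1 still overlapped sgCtrl.

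What a lost copy would look like can be set beside these values. If a gene had 2 copies and its reads followed copy number, loss of 1 copy would give a log2 fold change of -1 when every cell had lost it, -0.42 when 50% had, -0.19 at 25% and -0.07 at 10%. With 3 copies, loss of 1 would give -0.58 in every cell, -0.26 at 50% and -0.13 at 25%. The number of copies of this region in these cells was not tested, and the counts that follow use the values for 2 copies. For the 78 tested genes that averaged 50 counts or more, the 95% interval of the fold change lay wholly above -1 in 76 with sgKeap1-1 (not in CERS4 and SPC24) and in 75 with sgKeap1-2 (not in CERS4, FBXL12 and SPC24). It lay wholly above -0.42 in 40 and 46 of the 78. By side, this held for 12 and 14 of 32 telomeric genes and for 28 and 32 of 46 centromeric genes. The value for a loss in 25% of cells, -0.19, lies within the range of the standard errors of the genes named here, mostly 0.12 to 0.26, and is larger than that of deeply counted genes such as HNRNPM (0.14) and UBL5 (0.13) in the contrast of sgKeap1-1 with sgCtrl. It is also larger than the spread of 0.05 to 0.09 between single libraries over the region and its sides, whereas the value of -0.07 at 10% lies within that spread. Because that spread is not the error of a median fold change, it does not set which share of cells with a loss could be seen.

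Of the tested genes nearest to the cut, 6 on the telomeric and 5 on the centromeric side are described, and 7 of these 11 lay above 0 with each guide. Among them CDC37 alone passed the threshold, with sgKeap1-2. From the telomeric side towards KEAP1, the log2 fold changes with sgKeap1-1 and sgKeap1-2 were 0.46 and 0.31 for ICAM1, an adhesion molecule for leukocytes. They were 0.16 and -0.09 for its relative ICAM4 and -0.12 and -0.01 for ICAM3. TYK2, a kinase of cytokine receptors, had -0.14 and -0.21. PDE4A, a cyclic AMP phosphodiesterase whose end lies 16.5 kb from KEAP1, had 0.04 and 0.03. None of these 5 genes passed the threshold with either guide.

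On the centromeric side the first neighbour is ATG4D, a protease of autophagy that lies 40.3 kb from KEAP1, with log2 fold changes of 0.14 and 0.28. KRI1, a ribosome biogenesis factor, had -0.04 and 0.15, and CDKN2D, an inhibitor of cyclin-dependent kinases, had 0.22 and 0.14. For AP1M2, a subunit of an epithelial clathrin adaptor, CPM were 76.9, 68.8 and 87.9 in sgCtrl, 102, 73.5 and 126 in sgKeap1-1 and 139.9, 94.0 and 121 in sgKeap1-2. All 3 sgKeap1-2 libraries exceeded all 3 sgCtrl libraries, whereas sgKeap1-1 overlapped sgCtrl. The log2 fold changes were 0.36 ± 0.20 (SE; adjusted p = 0.448) with sgKeap1-1 and 0.60 ± 0.20 (adjusted p = 0.0718) with sgKeap1-2 by edgeR. SLC44A2, a choline transporter-like protein, had -0.33 and -0.59 from 13 to 40 counts a library. None of these 5 passed the threshold. AP1M2 did pass with sgKeap1-2 when only the groups compared were fitted (adjusted p = 0.0436, edgeR) and without sgKeap1-1 replicate 2 (0.0277) or sgKeap1-2 replicate 2 (0.0346), and with the replicate block (0.00300).

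**Figure D1:**
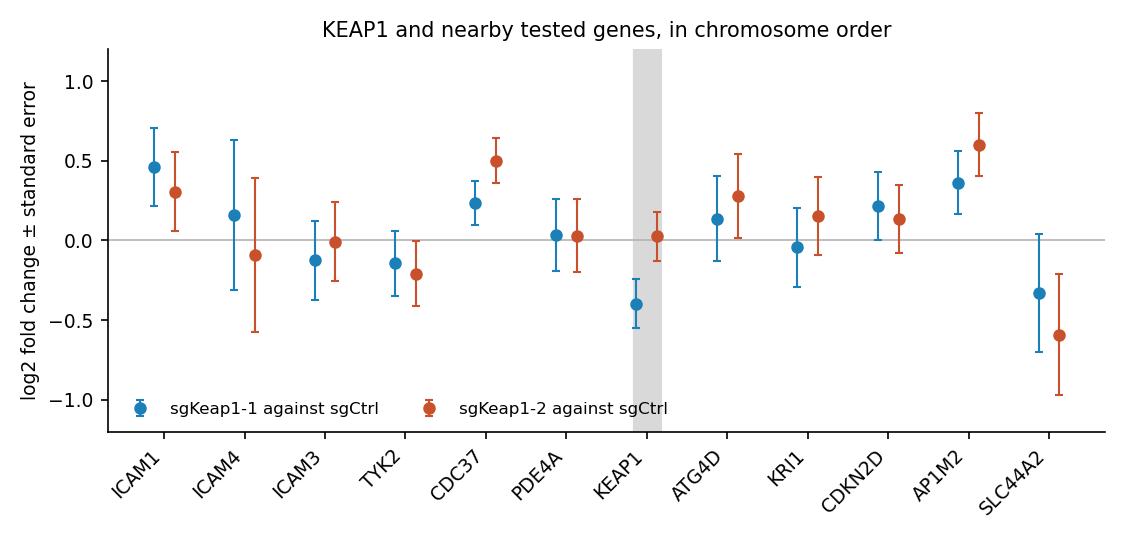
Log2 fold change against sgCtrl with its standard error (y axis) for KEAP1 (grey band) and 11 of the nearest tested genes in chromosome order (x axis), for both guides. CDC37 with sgKeap1-2 (0.24 and 0.50 for the guides in order) is the single neighbour past the threshold.

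Of the 8 genes that passed the threshold with sgKeap1-2, 7 are described by library. CDC37 (chr19:10501809-10530797, minus strand), a co-chaperone that brings kinases to HSP90, lies 66.0 kb telomeric of KEAP1. Its CPM were 379, 339 and 382 in sgCtrl, 456, 369.9 and 469.9 in sgKeap1-1 and 495, 449.8 and 612 in sgKeap1-2. Every sgKeap1-2 library was above every sgCtrl library, while 1 sgKeap1-1 library fell within the control range. Log2 fold changes were 0.24 ± 0.14 (SE; adjusted p = 0.488) with sgKeap1-1 and 0.50 ± 0.14 (adjusted p = 0.0329) with sgKeap1-2 in edgeR. The call was lost without sgCtrl replicate 1, 2 or 3 or sgKeap1-2 replicate 1 or 3, with an adjusted p of 0.0637 to 0.114.

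DNM2 (chr19:10828731-10944164, plus strand), the GTPase dynamin 2 that pinches off endocytic vesicles, lies 214 kb centromeric of KEAP1. It had CPM of 88.2, 82.8 and 90.2 in sgCtrl, 121, 114 and 109 in sgKeap1-1 and 139.9, 134 and 162 in sgKeap1-2. The 3 groups did not overlap, with sgKeap1-1 between the other groups. By edgeR the log2 fold changes were 0.40 ± 0.13 (SE; adjusted p = 0.107) with sgKeap1-1 and 0.74 ± 0.13 (adjusted p = 0.00135) with sgKeap1-2. With the replicate block DNM2 also passed with sgKeap1-1 (adjusted p = 0.0399, edgeR). The difference between the guides was 0.34 ± 0.12 (SE; adjusted p = 0.918, edgeR), so that the step from one guide to the other did not pass the threshold.

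SMARCA4 (chr19:11071608-11190102, plus strand), the ATPase BRG1 of the SWI/SNF chromatin remodelling complex, is the next gene past the threshold. CPM were 220.4, 184 and 250.3 in sgCtrl, 289, 254 and 274 in sgKeap1-1 and 328, 307 and 432 in sgKeap1-2. Both guides lay above sgCtrl in every library, and the sgKeap1-1 libraries lay below those of sgKeap1-2. The log2 fold changes were 0.32 ± 0.15 (SE; adjusted p = 0.352) with sgKeap1-1 and 0.70 ± 0.15 (adjusted p = 0.0074) with sgKeap1-2 by edgeR.

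RAB3D (chr19:11432744-11456946, minus strand), a small GTPase of regulated secretion, had CPM of 19.8, 17.8 and 14.1 in sgCtrl, 34.9, 25.3 and 24.2 in sgKeap1-1 and 35.0, 30.8 and 32.1 in sgKeap1-2. Every library of either guide was above all of sgCtrl, and the guides overlapped each other. The log2 fold changes were 0.71 ± 0.20 (SE; adjusted p = 0.0706) with sgKeap1-1 and 0.92 ± 0.20 (adjusted p = 0.00873) with sgKeap1-2 in edgeR, and the call was lost without sgCtrl replicate 3 (adjusted p = 0.0556). RAB3D also passed with sgKeap1-1 under the replicate block (adjusted p = 0.0176, edgeR).

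ELOF1 (chr19:11661962-11670045, minus strand), a transcription elongation factor, had CPM of 38.6, 33.9 and 40.0 in sgCtrl, 45.7, 37.2 and 41.6 in sgKeap1-1 and 53.5, 48.4 and 57.7 in sgKeap1-2. The sgKeap1-2 libraries were above all of sgCtrl, and sgKeap1-1 overlapped the control. Log2 fold changes by edgeR were 0.14 ± 0.15 (SE; adjusted p = 0.777) with sgKeap1-1 and 0.50 ± 0.15 (adjusted p = 0.0493) with sgKeap1-2. This call was lost on leaving out any single library other than sgKeap1-1 replicate 2 (adjusted p of 0.0597 to 0.157), and with limma-voom (0.0561) and DESeq2 (0.0516).

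FARSA (chr19:13033293-13044851, minus strand), a subunit of phenylalanyl-tRNA synthetase, lies 2419 kb from KEAP1. CPM were 87.1, 98.9 and 97.3 in sgCtrl, 106, 99.0 and 107 in sgKeap1-1 and 119, 123 and 154 in sgKeap1-2. Both guides were above sgCtrl in every library, by a small margin in sgKeap1-1. The log2 fold changes were 0.14 ± 0.13 (SE; adjusted p = 0.74) with sgKeap1-1 and 0.48 ± 0.13 (adjusted p = 0.0344) with sgKeap1-2 in edgeR, and the adjusted p with sgKeap1-2 was 0.0601 when only the groups compared were fitted. It was 0.0515 to 0.142 without sgCtrl replicate 1, 2 or 3, sgKeap1-1 replicate 1 or sgKeap1-2 replicate 3.

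CTXN1 (chr19:7989376-7991020, minus strand), which encodes the small membrane protein cortexin 1 known from neurons, had the largest rise among the 109 genes and lies 2606 kb away, near the telomeric edge of the window. It was read from few molecules, with counts of 6, 4 and 4 in sgCtrl, 26, 13 and 27 in sgKeap1-1 and 24, 24 and 25 in sgKeap1-2. All libraries of both guides exceeded all of sgCtrl, with sgKeap1-1 replicate 2 the lowest of them. The log2 fold changes were 1.96 ± 0.46 (SE; adjusted p = 0.0234) with sgKeap1-1 and 2.21 ± 0.45 (adjusted p = 0.00533) with sgKeap1-2 by edgeR. With sgKeap1-1 the call was lost without sgCtrl replicate 1, 2 or 3 or without sgKeap1-1 replicate 1 or 3, and the adjusted p was 0.0994 with limma-voom.

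**Figure D2:**
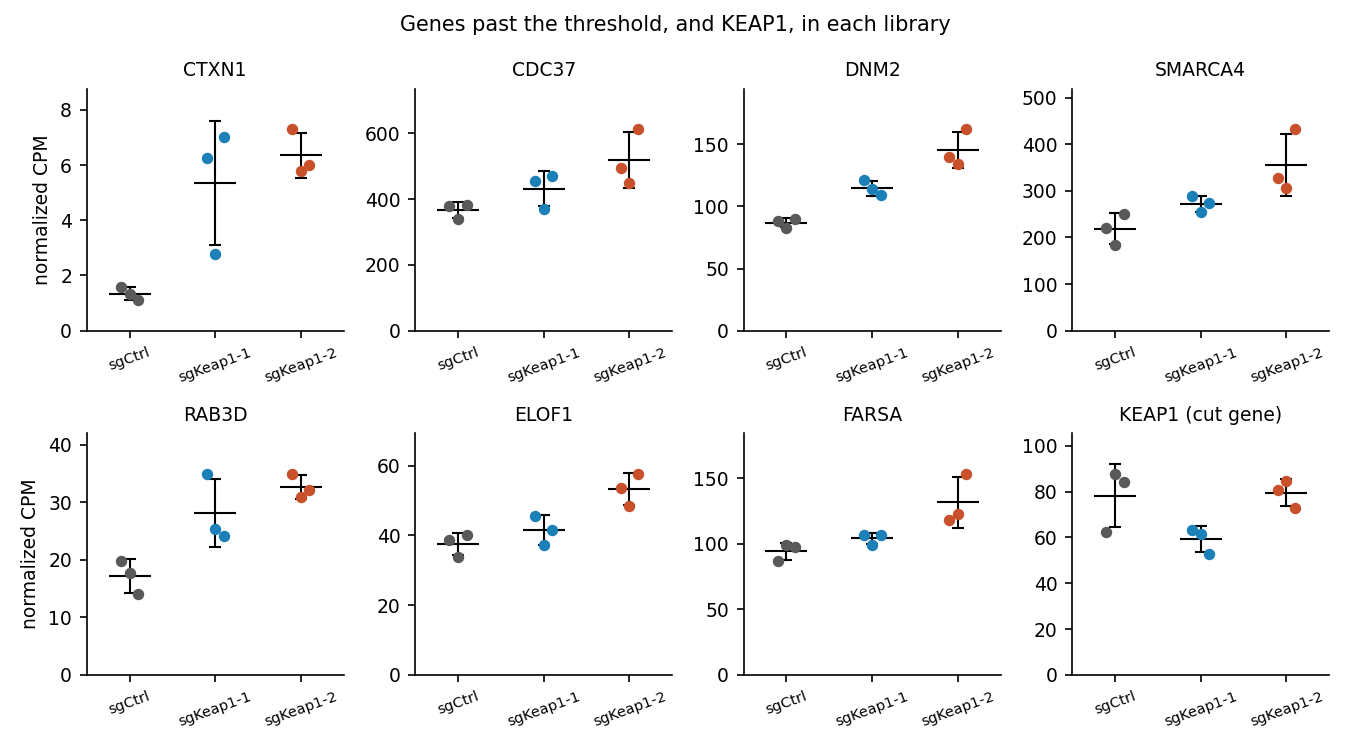
Normalized CPM (y axis, from 0) of 7 genes past the threshold with sgKeap1-2, and of KEAP1, in each library, with the mean and SD of each group (n = 3). In these 7 genes the 3 sgKeap1-2 libraries lie above the 3 sgCtrl libraries, and in KEAP1 they overlap.

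No gene passed the threshold between the KEAP1 guides. Of the 109 genes, 0 passed the threshold for sgKeap1-2 against sgKeap1-1 in edgeR (background 0.0170%), and 6 had an unadjusted p under 0.05 (background 5.03%), 5 higher (2.25%) and 1 lower (2.78%). When the 6 libraries of both guides were taken as 1 group against sgCtrl, 8 of 109 passed (background 9.24%), 7 higher (5.29%) and 1 lower (3.94%). The count of 8 was 3 without sgCtrl replicate 1, 5 without sgCtrl replicate 2 or sgKeap1-2 replicate 1, 2 without sgCtrl replicate 3, and 4 without sgKeap1-1 replicate 1 or sgKeap1-2 replicate 2. At an unadjusted p under 0.05 there were 18 genes (background 21.8%), 15 higher (11.7%) and 3 lower (10.2%). With the replicate block 12 passed in the joint comparison (13.8% of all rows), 9 higher and 3 lower (CERS4, DNMT1 and SPC24), and CDC37 was among the higher ones (adjusted p = 0.0260, edgeR). The higher genes at the adjusted threshold without the block included CTXN1, DNM2, SMARCA4, RAB3D, JUNB and PLPPR2. The joint call of SMARCA4 was lost with limma-voom (adjusted p = 0.0621), with at least 10 counts in every library (0.0513, edgeR), and without sgCtrl replicate 1, 2 or 3, sgKeap1-1 replicate 1 or sgKeap1-2 replicate 1 or 2 (0.0644 to 0.194). That of DNM2 was lost without sgCtrl replicate 1 (0.0538) or 2 (0.0510), and that of RAB3D without sgCtrl replicate 3 (0.0759). The names JUNB, PLPPR2 and CERS4 were taken up after their values were seen.

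JUNB, an AP-1 transcription factor, had CPM of 10.4, 15.1 and 14.1 in sgCtrl, 18.5, 23.2 and 25.2 in sgKeap1-1 and 17, 22.9 and 18.2 in sgKeap1-2. Both guides lay above sgCtrl in every library, and its log2 fold change in the joint comparison was 0.67 ± 0.20 (SE; adjusted p = 0.045) by edgeR. With the replicate block it also passed in the comparison of sgKeap1-1 with sgCtrl (adjusted p = 0.0206, edgeR). PLPPR2, a phospholipid phosphatase-related membrane protein, had CPM of 3.65, 8.05 and 4.14 in sgCtrl, 8.41, 11.2 and 10.1 in sgKeap1-1 and 10.9, 10.8 and 7.66 in sgKeap1-2. One control library overlapped sgKeap1-2, and the joint log2 fold change was 0.93 ± 0.28 (SE; adjusted p = 0.0488) in edgeR, and with the replicate block it also passed in the comparison of sgKeap1-2 with sgCtrl (adjusted p = 0.0405). CERS4, a ceramide synthase, was the gene that fell. Its CPM were 15.6, 19.1 and 21.8 in sgCtrl, 10.3, 11.8 and 14.3 in sgKeap1-1 and 12.8, 12.8 and 10.8 in sgKeap1-2. Each library of either guide was below each sgCtrl library, and the joint log2 fold change was -0.64 ± 0.18 (SE; adjusted p = 0.0406) by edgeR. The joint calls of these 3 genes were each lost on leaving out any of several single libraries, with an adjusted p of up to 0.244 for JUNB, 0.256 for PLPPR2 and 0.225 for CERS4. That of JUNB was also lost with limma-voom (adjusted p = 0.0555).

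Groups that did not overlap were counted in both directions, and whether their share differs from that of other genes was not tested. All 3 sgKeap1-1 libraries were above all 3 sgCtrl libraries in 13 of the 109 genes (background 11.2%) and below in 6 (background 10.1%). For sgKeap1-2 the counts were 14 above (background 14.1%) and 6 below (background 13.4%).

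Grouped by their roles, few genes of any list passed the threshold. The background given beside a rise is the share of all rows that were higher with sgKeap1-2. Beside a count of 0 it is the share that passed in either direction, 3.94% with sgKeap1-1 and 10.2% with sgKeap1-2, at which lists this short would hold few calls or none. Among 11 tested genes of vesicle traffic, 2 rose with sgKeap1-2 (DNM2 and RAB3D; background 5.71%) and the group median was 0.14 with sgKeap1-1 and 0.02 with sgKeap1-2, while RAB11B, a GTPase of recycling endosomes, had log2 fold changes of -0.15 and -0.27. Of 14 genes for RNA binding and translation, 2 rose with sgKeap1-2 (FARSA and ELOF1; background 5.71%), with medians of 0.04 and 0.06. HNRNPM, a splicing regulator, had -0.10 and -0.22 without passing. Among 8 genes of chromatin and DNA, SMARCA4 rose with sgKeap1-2 (background 5.71%), with medians of 0.03 and 0.01. DNMT1, the maintenance DNA methyltransferase, had -0.30 and -0.35 and passed as lower with sgKeap1-2 under the replicate block (adjusted p = 0.0272, edgeR), and CARM1, an arginine methyltransferase, had 0.02 and 0.17.

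Of 7 genes for protein folding and the endoplasmic reticulum, CDC37 rose with sgKeap1-2 (background 5.71%), with medians of 0.15 and 0.13. CALR, the calcium-binding chaperone calreticulin and the most abundant gene of the region, had CPM of 1071, 931 and 1229 in sgCtrl, 1066, 951 and 1155 in sgKeap1-1 and 848, 905 and 1259.8 in sgKeap1-2. Its groups overlapped fully, with log2 fold changes of -0.03 and -0.10. WDR83OS, an endoplasmic reticulum membrane protein, had -0.23 and -0.10. Another abundant gene, the ubiquitin-like splicing factor UBL5, had 0.21 and 0.01 and did not pass the threshold.

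The 5 tested genes of lipid handling had medians of -0.33 and -0.59, the lowest of the lists. These medians are the values of 1 gene, SLC44A2, which was read from few counts. With sgKeap1-1 its value ranged from -0.63 to 0.19 on leaving out 1 library. Of the 5 genes, 2 lay above 0 with each guide, so the list did not move in a single direction. ANGPTL8, a liver-secreted inhibitor of lipoprotein lipase action, had 0.27 and 0.70 with CPM of 12.5, 27.8 and 13.2 in sgCtrl, 19.7, 18.9 and 25.5 in sgKeap1-1 and 20.1, 14.2 and 51.0 in sgKeap1-2. Its highest value came from sgKeap1-2 replicate 3, and the groups overlapped. ANGPTL4, another inhibitor of lipoprotein lipase, named here because it had the lowest fold changes of the 109 genes, had CPM of 12.3, 33.9 and 6.34 in sgCtrl, 6.01, 11.6 and 6.76 in sgKeap1-1 and 2.13, 5.78 and 11.3 in sgKeap1-2. The groups overlapped, and the log2 fold changes were -1.07 ± 0.65 (SE; adjusted p = 0.53) with sgKeap1-1 and -1.39 ± 0.67 (adjusted p = 0.263) with sgKeap1-2 in edgeR.

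In 8 genes for mitochondrial and redox proteins, 0 passed with either guide in edgeR (background 3.94% and 10.2%), with medians of -0.07 and 0.05. GADD45GIP1, a mitochondrial ribosome-associated protein, had 0.09 and 0.22, PRDX2, a peroxidase for hydrogen peroxide, had -0.06 and -0.16, and the mitochondrial ribosomal protein MRPL4 had -0.11 and 0.03. Among 9 genes of immune adhesion and signalling, 0 passed (background 3.94% and 10.2%), with medians of 0.15 and -0.01, and CD320, the receptor for transcobalamin-bound vitamin B12, had 0.15 and 0.11. Lysosomal and autophagy genes were represented by DNASE2, the acid nuclease of lysosomes, with 0.36 and 0.59, and by ATG4D, and 0 of these 2 passed (background 3.94% and 10.2%). DNASE2 was above sgCtrl in every library of both guides, and it passed with sgKeap1-2 under the replicate block (adjusted p = 0.0328, edgeR). Of the cytoskeletal regulators, KANK2 had 0.16 and 0.19 and DOCK6, a guanine nucleotide exchange factor, had 0.33 and 0.75, and 0 of these 2 passed (background 3.94% and 10.2%), though DOCK6 did with sgKeap1-2 under the replicate block (adjusted p = 0.0265, edgeR). Of 4 tested transcription factors outside the zinc finger cluster, 0 passed with either guide alone without the replicate block (background 3.94% and 10.2%). NFIX had -0.16 and -0.03, the immediate early gene IER2 had -0.25 and -0.21 and the repressor NACC1 had -0.01 and 0.17.

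The region holds a cluster of zinc finger genes, most of them KRAB repressors, which resemble each other closely, so that reads may be shared between near copies. Of 22 tested, 0 passed with either guide (background 3.94% and 10.2%), with medians of -0.02 and 0.01 and ranges of -0.45 to 1.17 and -0.80 to 0.56. ZNF121 had 0.05 and 0.24, ZNF791 had 0.12 and 0.31 and ZNF562 had -0.04 and 0.18.

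Several of the genes named overlap a gene on the opposite strand that is also in the table, namely CDC37 with PDE4A, DNM2 with TMED1, JUNB with HOOK2, and ATG4D with KRI1, and RAB3D overlaps TMEM205 on its own strand. Whether the counting used strand is not given in the sources used here, so the reads of such pairs may be mixed.

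Promoters of the members were searched for TGACNNNGC, the core of the antioxidant response element bound by NRF2, on both strands of the 300 bases around each gene start (RefSeq, GRCh38.p14). The letters occurred in 13.3% of all promoters and in a promoter of 16.1% of all genes. They occurred in 17 of the 92 tested members with a promoter in the table (18.5%), and in 0 of the 7 genes past the threshold that have one. A match of these letters is a description and not a binding site.

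The rest of chromosome 19 was compared in the same way. The 139 tested genes between the telomere of the short arm and the window had medians of -0.04 with sgKeap1-1 and -0.03 with sgKeap1-2. Between the window and the centromere, 123 genes had 0.08 for both guides. Taken whole and for each guide alone, the stretches telomeric of KEAP1 thus had medians at or slightly below 0. Those centromeric of it on the short arm were slightly above 0, and single bins went both ways on each side. In the joint comparison the median was 0.02 on the telomeric side of the window and -0.05 between the telomere and the window. A loss of 1 of 2 copies in 10% of cells would give -0.07. Whether a small share of cells had lost the arm end was not tested. On the long arm, 327 genes before the control cut site had 0.02 and 0.06. Their mean log2 CPM was 4.28 ± 0.02 in sgCtrl, 4.35 ± 0.05 in sgKeap1-1 and 4.36 ± 0.07 in sgKeap1-2 (SD, n = 3 each), with every library of either guide above every sgCtrl library. The 73 genes beyond the control site had medians of -0.07 and -0.10. The mean log2 CPM of these 73 genes was 3.71 ± 0.03 in sgCtrl, 3.63 ± 0.05 in sgKeap1-1 and 3.63 ± 0.05 in sgKeap1-2 (SD, n = 3 each), and the libraries of the groups overlapped. Between libraries of the same replicate number, however, the differences from sgCtrl were all negative, at -0.05, -0.05 and -0.14 with sgKeap1-1 and -0.12, -0.08 and -0.04 with sgKeap1-2. Neither difference on the long arm was tested.

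**Figure D3:**
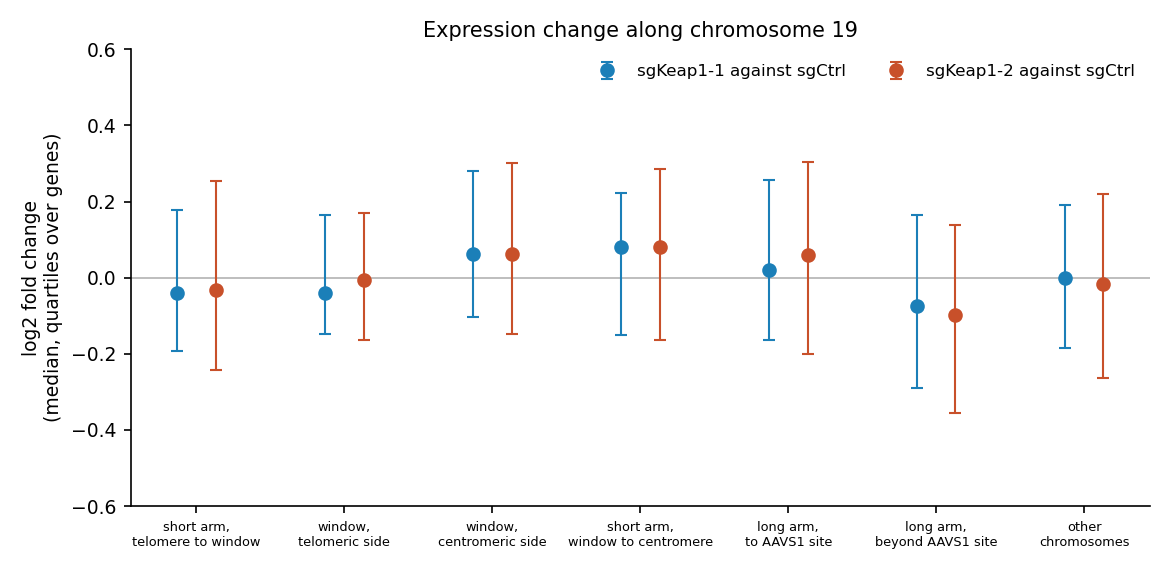
Median log2 fold change against sgCtrl with the quartiles over genes (y axis) for tested genes in stretches of chromosome 19 from the short-arm telomere to beyond the AAVS1 site, and on other chromosomes (x axis), for both guides. All medians lie between -0.10 and 0.08, within quartiles that span 0.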

How the data were processed

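QuantSeq 3′ mRNA libraries of HepG2 cells were sequenced and counted by the authors with cutadapt 1.16, STAR 2.7.5b and featureCounts 1.6.3, per the submitters' processing notes. The deposited table holds raw read counts per gene for 9 libraries. The study's methods name GRCh37 and the processing notes name hg38, which leaves the build of the counts uncertain. The table holds no coordinates. Positions here come from GENCODE v44 lifted to GRCh37, matched by gene symbol, which placed 11549 of 11746 rows with an Entrez number. Another 1052 rows carry no Entrez number and hold 1.34% of counts. These rows name a gene by another identifier and stayed in the fit.

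Counts were filtered with filterByExpr, scaled by TMM and fitted with edgeR 4.0.16 (glmQLFit, robust) in R 4.3.3 over all 3 groups, with Benjamini-Hochberg adjusted p under 0.05 as the threshold over 11788 rows. Joint comparisons of both guides used a 2-group fit. Libraries of one replicate number share a prefix in their labels. The correlations of their deviations from the group means were -0.03 to 0.32 for number 1, 0.47 to 0.66 for number 2 and 0.28 to 0.29 for number 3. Pairs of different number from different groups had -0.52 to 0.37, so that only number 2 lay wholly above them. The study's methods name no block, so the fit without it is reported, with the blocked value where it changes a call. Log2 CPM used a prior count of 2. The fit was tested on simulated counts, and no result of that test is given here. Total counts of 3051755 to 4793757 limit the precision for genes with few counts.

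Named genes were KEAP1, the 6 nearest tested genes on each side, all genes past the threshold with either guide, the 5 most abundant, and up to 3 per role list, called genes first and then the most abundant. CERS4, JUNB, PLPPR2 and ANGPTL4 were added after their values were seen. Some genes that the rule names are not reported here. The members, lists and tests were chosen with earlier results of these data known. Alternatives were other scalings, filters and tools (limma 3.58.1, DESeq2 1.42.0), other windows, a replicate block and leaving out libraries.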

Additional observations from a re-analysis of the deposited data

How the results depend on the processing

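Most results kept their direction and their side of the threshold. Narrowing the window to 1 Mb either side moved the window median to 0.080 (sgKeap1-1), 0.15 (sgKeap1-2), 0.12 (between the guides) and 0.12 (both guides), the centromeric median to 0.15, 0.17, 0.14 and 0.18 in the same order, and the telomeric median to 0.11 with sgKeap1-2. This setting keeps fewer genes. With sgKeap1-1, 0 genes passed with limma-voom and 0 with at least 10 counts in every library, which removes CTXN1. With the replicate number as a block, 5 genes passed with sgKeap1-1 (8.38% of all rows), 16 with sgKeap1-2 (16.8%), 12 with both guides (13.8%) and 0 between the guides, and the calls made without the block among the genes named here were kept. Leaving out 1 library at a time gave 0 to 2 genes with sgKeap1-1, 4 to 9 with sgKeap1-2 and 2 to 8 with both guides, a window median of -0.0050 to 0.081 and a centromeric median of 0.048 to 0.13 with sgKeap1-1. Leaving out replicate 2 of every group, chosen after seeing the data, gave 1, 10 and 7 genes. CTXN1, DNM2 and SMARCA4 passed with sgKeap1-2 whichever single library was left out. The cause of these changes was not tested. Genes whose sign turned had fold changes that did not pass the threshold in the fit of all libraries without the block. Of these, ANGPTL8 with sgKeap1-2 did pass without replicate 2 in every group (log2 fold change 1.47, adjusted p = 0.0373, edgeR). CARM1 with sgKeap1-1 was -0.00042 with limma-voom, ICAM3 with sgKeap1-2 was 0.012 with the block and 0.0029 with limma-voom, and NACC1 with sgKeap1-1 was 0.0040 with the block and 0.015 with limma-voom. Without replicate 2 in every group the values that turned were KRI1 0.27, ZNF791 -0.011, ZNF562 0.11 (sgKeap1-1), PDE4A -0.084, ATG4D -0.048, UBL5 -0.054, MRPL4 -0.033 (sgKeap1-2) and CTXN1 -0.0042 (between the guides). On leaving out 1 library, the log2 fold changes with sgKeap1-1 ranged over SLC44A2 -0.63 to 0.19, NFIX -0.26 to 0.027, NACC1 -0.16 to 0.30, ZNF562 -0.17 to 0.13, ICAM4 -0.021 to 0.48, PDE4A -0.071 to 0.18, KRI1 -0.17 to 0.13, KANK2 -0.11 to 0.29, CARM1 -0.13 to 0.15, ZNF791 -0.0034 to 0.28, ICAM3 -0.33 to 0.018, CALR -0.12 to 0.079, MRPL4 -0.23 to 0.0083, ZNF121 -0.066 to 0.15, TYK2 -0.29 to 0.032, HNRNPM -0.21 to 0.038. With sgKeap1-2 they ranged over KEAP1 -0.11 to 0.12, ICAM4 -0.78 to 0.29, ICAM3 -0.18 to 0.13, WDR83OS -0.24 to 0.0016, NFIX -0.13 to 0.17, PDE4A -0.13 to 0.18, UBL5 -0.092 to 0.099, MRPL4 -0.10 to 0.14, CALR -0.30 to 0.0088, KANK2 -0.030 to 0.33, KRI1 -0.095 to 0.33, ANGPTL8 -0.048 to 1.15. Between the guides the range was CTXN1 -0.067 to 0.50.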
